A study of Bubalus bubalis with 6 samples.

Results

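The genes of the muscle nicotinic acetylcholine receptor and of the pathway that clusters it at the neuromuscular junction were followed through differentiation of buffalo muscle stem cells (MuSCs). The group holds 10 genes, taken by their symbols from the 24616 genes listed in the deposited gene table. They are the 5 muscle receptor subunit genes CHRNA1, CHRNB1, CHRND, CHRNG and CHRNE, and 5 genes of the clustering pathway, AGRN, LRP4, MUSK, DOK7 and RAPSN. All 10 were among the 15576 genes tested.

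The receptor is a ring of subunits around a cation channel that opens when acetylcholine binds. In fetal and denervated muscle the ring carries the γ subunit, and in innervated adult muscle the ε subunit takes its place. Agrin released by the motor nerve binds LRP4, which activates the receptor tyrosine kinase MuSK. The adaptor DOK7 binds and activates MuSK from inside the cell, and rapsyn, the product of RAPSN, anchors receptors beneath the synapse.

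Primary MuSCs had been isolated from fetal longissimus muscle of water buffalo (Bubalus bubalis). The 3 GM samples were proliferating cells in high-glucose DMEM with fetal bovine serum, and the 3 DM samples were cells that had been moved near confluence to DMEM with horse serum, where they fused into myotubes. No genetic change or drug is named for any sample. The labels do not say whether replicates were separate cultures or animals, so p-values cover only the spread between these samples. A polyA library was sequenced from each sample, and the methods name no motor neurons in the cultures.

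Counts summed over genes ranged from 36657735 to 40305237 in GM and from 35615864 to 38177614 in DM. DM replicate 3 stood apart from the other DM samples, differing from them by a chi-square of 42.5 to 43.3 per degree of freedom, where DM replicates 1 and 2 differed by 12.2. Of the 13 myogenic markers tested, 8 were called higher and 1 lower in DM by the rule given below. Over all genes tested 25.3% were called and 15.0% were called higher. The markers' summed level was 2985 to 3606 CPM (counts per 1000000 of the scaled library) in GM and 8120 to 11434 CPM in DM. CKM, the muscle creatine kinase, had a log2 fold change of 6.32, and MYH3, the embryonic myosin heavy chain, one of 2.58. The structural marker DES was at 2274 ± 103 CPM in GM and 2051 ± 323 CPM in DM (SD, n = 3), and the stem cell factor PAX7 had a log2 fold change of -0.92. Of 10 fibroblast markers tested, 7 were called higher in DM, against the same 15.0% of all genes. Their summed levels were 35889 to 36661 CPM in GM and 98032 to 123763 CPM in DM, and the part of this in the results below was not tested. The motor neuron genes CHAT, SLC18A3 and SLC5A7, which serve the synthesis and storage of acetylcholine, had 0 counts in every sample. Of the 9 motor neuron markers tested, 2 were called higher and 3 lower in DM, where 25.3% of all genes were called. Their summed levels were 341 to 380 CPM in GM and 348, 339 and 624 CPM in DM replicates 1, 2 and 3. In bulk samples fewer cells of a type and less RNA per cell cannot be told apart.

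CHRNA1, CHRND and CHRNG rose in DM, together with MUSK and DOK7, and CHRNB1 and CHRNE differed by less than the spread between replicates. AGRN and LRP4 were slightly higher in DM and RAPSN lower, each by less than the minimum fold change. A gene was called when its absolute log2 fold change was above 1 and its adjusted p was under 0.05 in edgeR's quasi-likelihood test, with Benjamini-Hochberg adjustment over all genes tested. By this rule 5 of the 10 genes were called, against 25.3% of all genes tested, and all 5 were called higher, against 15.0%. With the adjusted p alone, 8 of the 10 passed, against 63.0% of all genes. The GM and DM values did not overlap for 8 of the 10, against 68.8% of all genes. The median log2 fold change was 1.06 over the 10 genes and 0.03 over all genes tested. The choice of the genes was made with earlier results known, so these counts are a description.

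**Figure D1:**
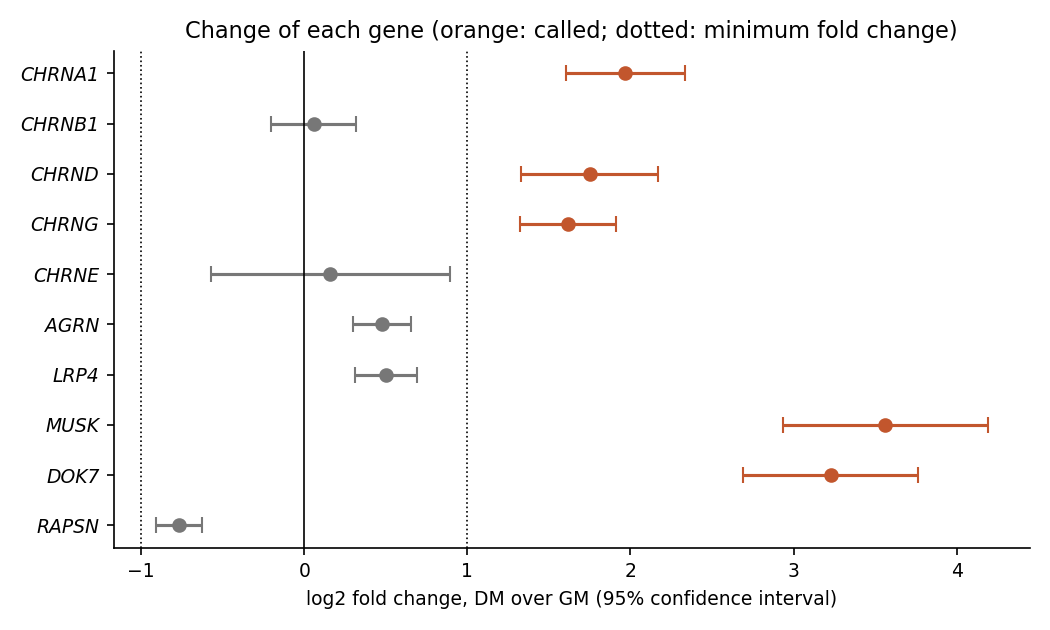
log2 fold change of DM over GM for each of the 10 genes (horizontal axis), with bars for the 95% confidence interval and dotted lines at the minimum fold change for a call. The 5 called genes lie to the right, with MUSK at 3.56 and DOK7 at 3.23, while RAPSN is at -0.77 and the intervals of CHRNB1 and CHRNE include 0.

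CHRNA1 (ENSBTAG00000018253, chromosome 2, 22120291 to 22139864, plus strand, as listed in a table that names no genome build) encodes the α subunit, which contributes to the acetylcholine binding sites. Its level was 8.46, 6.75 and 11.2 CPM in GM replicates 1, 2 and 3 and 31.1, 32.9 and 39.2 CPM in the DM replicates. Every DM sample was above every GM sample. The log2 fold change was 1.97 (SE 0.16, 95% confidence interval 1.60 to 2.33), a 3.91-fold rise, with an edgeR adjusted p of 2.01e-06.

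CHRND (ENSBTAG00000011390, chromosome 2, 120975092 to 120982350, plus strand) encodes the δ subunit. It was measured at 11.5, 7.11 and 13.1 CPM in GM and at 31.7, 33.6 and 41.2 CPM in DM. The groups did not overlap, and the lowest GM value was again that of replicate 2. The log2 fold change was 1.75 (SE 0.19), a 3.37-fold rise, with an edgeR adjusted p of 1.45e-05.

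CHRNG (ENSBTAG00000045943, chromosome 2, 120988439 to 120993968, plus strand) encodes the fetal γ subunit. Its counts of 1085, 828 and 1075 in GM and 2412, 2542 and 3224 in DM made it the subunit gene with the highest level per length in both groups. In CPM these were 26.2, 19.9 and 28.4 in GM and 71.4, 69.5 and 87.1 in DM. No GM sample reached the lowest DM sample, and the 3.07-fold rise had a log2 fold change of 1.62 (SE 0.13) and an edgeR adjusted p of 1.75e-06.

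CHRNE (ENSBTAG00000004908, chromosome 19, 27118517 to 27123114, plus strand) encodes the adult ε subunit. Only 46, 49 and 43 counts fell on it in GM and 29, 39 and 70 in DM. These corresponded to 1.11, 1.18 and 1.13 CPM in GM and 0.859, 1.07 and 1.89 CPM in DM. The groups overlapped, with the DM samples lying both below and above the GM samples. The log2 fold change was 0.16 (SE 0.33, edgeR adjusted p = 0.693) and its 95% interval of -0.57 to 0.89 corresponds to folds of 0.673 to 1.86. Without DM replicate 3 the value was -0.23. C17orf107, listed on the opposite strand, overlaps CHRNE and had at most 6 counts in a sample. Whether counting used strand is not given in the sources used here, so reads on shared bases cannot be told apart.

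CHRNB1 (ENSBTAG00000019242, chromosome 19, 27757183 to 27766382, plus strand) encodes the β subunit, which the fetal and the adult receptor share. Its level was 31.1, 26.7 and 30.2 CPM in GM and 27.2, 27.7 and 36.7 CPM in DM. Both groups covered nearly the same range, apart from the highest DM sample. The log2 fold change was 0.06 (SE 0.12, edgeR adjusted p = 0.690), with a 95% interval of -0.20 to 0.32, or folds of 0.869 to 1.25. The sign changed to -0.09 without DM replicate 3, to -0.01 without GM replicate 2 and to -0.04 when scaling by library size alone.

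**Figure D2:**
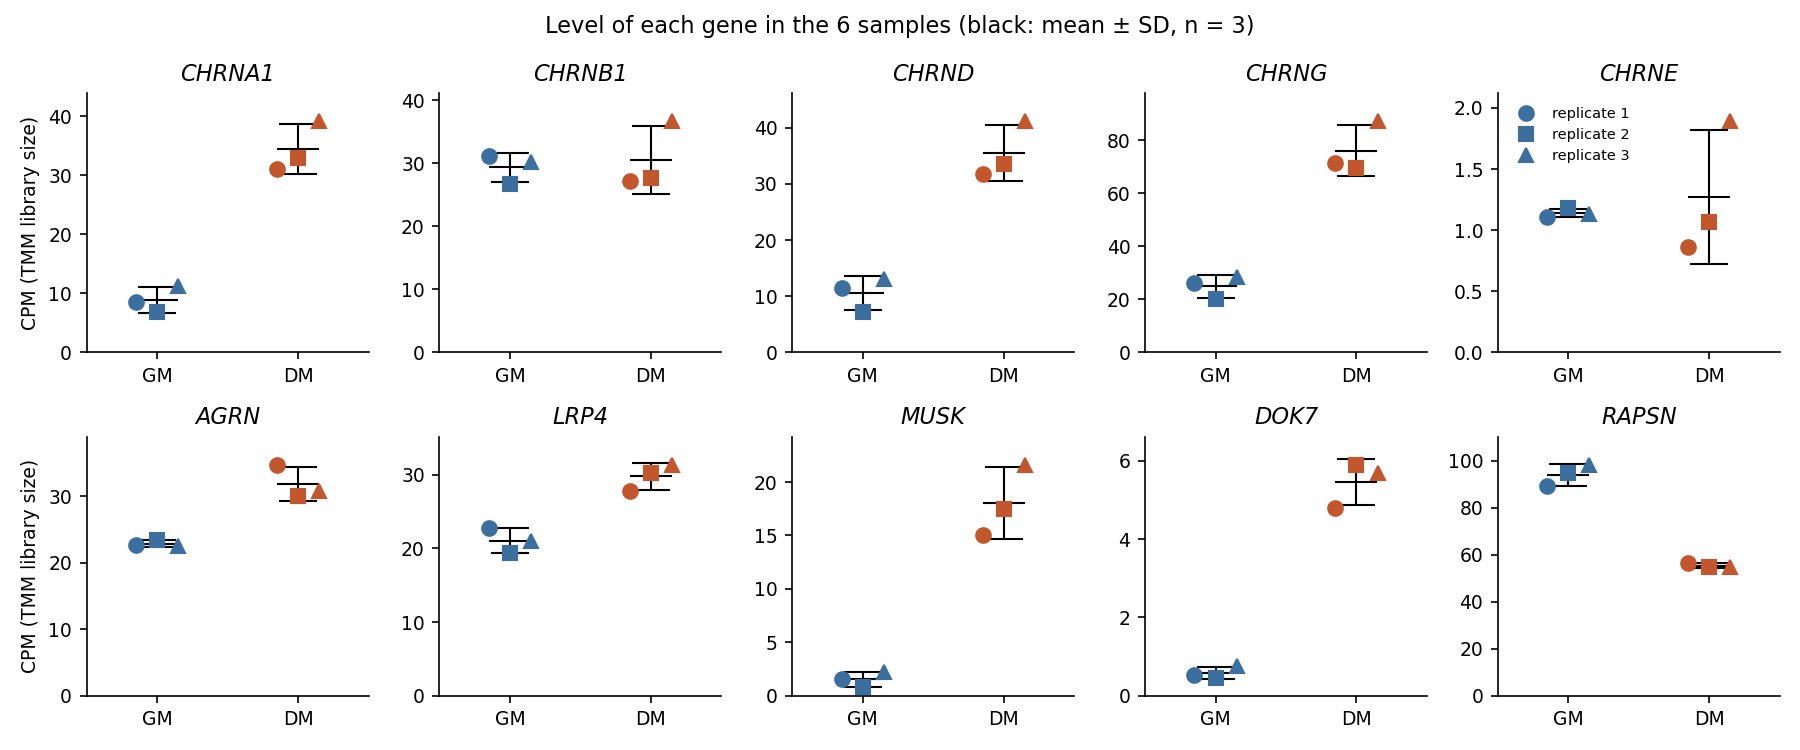
Level of each of the 10 genes in CPM (vertical axis, from 0, one scale per panel) in the 3 GM and 3 DM samples, with the mean ± SD in black. GM and DM points are separate for all genes but CHRNB1 and CHRNE, and RAPSN is the gene with lower DM points.

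CHRND and CHRNG lie next to each other on chromosome 2 in the same orientation, 6088 bases apart. Of the genes flanking the pair, EIF4E2, a cap-binding protein gene that starts 1675 bases beyond CHRNG, was at 41.2 ± 1.97 CPM in GM and 43.1 ± 6.19 CPM in DM (SD, n = 3). Its log2 fold change was 0.07 (SE 0.10, edgeR adjusted p = 0.589). ECEL1, an endopeptidase-like gene on the other side at a distance of 41852 bases, had at most 11 counts in a sample. The 95% interval of its log2 fold change was -1.31 to 1.45, too wide to show a change or its absence. Both genes of the pair rose and neither flanking gene was called. Only 25.3% of all genes tested were called, so uncalled neighbours are no particular trait of this pair.

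Shares within a sample need no scaling between samples. Each subunit's counts were divided by its listed length and expressed as a percentage of the sum over the 5 subunits, which describes transcripts and not assembled receptors. The γ subunit made up 41.0, 40.1 and 41.6% of the sum in GM and 52.5, 50.6 and 50.6% in DM. The β subunit made up 33.7, 37.2 and 30.6% in GM and 13.8, 13.9 and 14.7% in DM. The sum thus held more γ and less β in every DM sample than in any GM sample.

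The α share was 6.39, 6.56 and 7.93% in GM and 11, 11.6 and 11% in DM. The δ share was 17.1, 13.6 and 18.1% in GM and 22.0, 23.1 and 22.6% in DM. Both were higher in each DM sample. The ε share was below 3% throughout, at 2.06% ± 0.418 in GM and 0.893% ± 0.256 in DM (SD, n = 3). Each of the 5 shares separated the groups. The shares of a sample have a fixed sum, so these are not 5 separate results, and the CPM of CHRNB1 and CHRNE overlapped between the groups. The two-sided exact permutation test gave p = 0.1 for each share (0.1 after adjustment over the 5 subunits). This is the smallest p that 3 against 3 samples allow, so this design cannot pass a threshold of 0.05.

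Counting γ and ε alone, since these replace each other in the receptor, γ held 95.7, 94.0 and 95.9% in GM and 98.7, 98.4 and 97.7% in DM. The fetal form therefore already took nearly the whole of the pair in GM, and its share was 3.08 percentage points higher in DM (two-sided exact permutation test, p = 0.1). DM replicate 3, with the most CHRNE counts, had the lowest γ share of the DM samples.

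**Figure D3:**
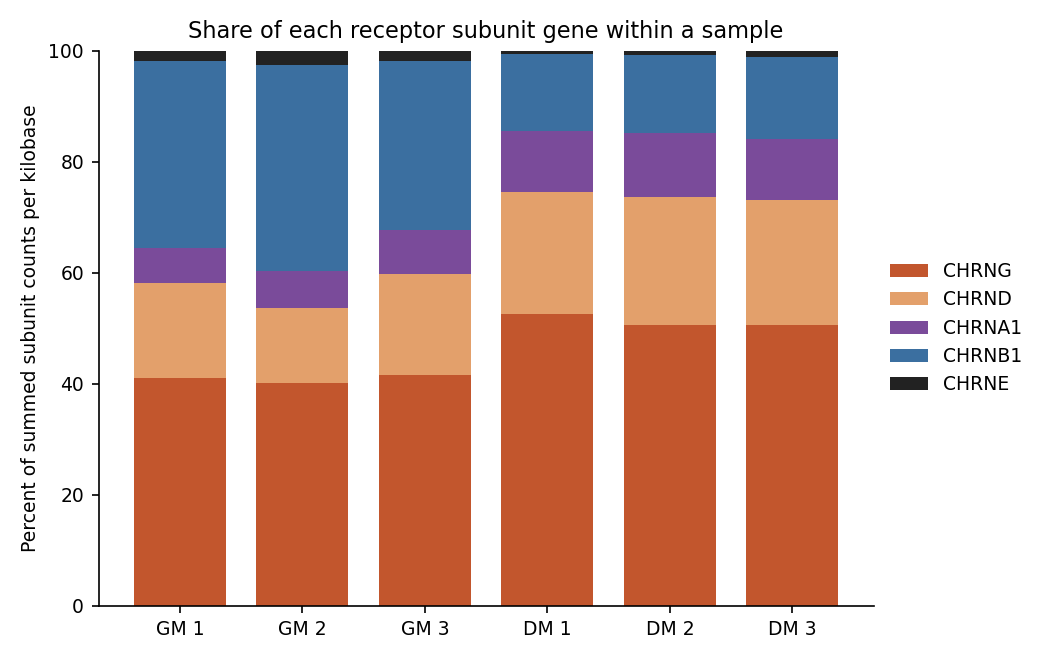
Percent of the summed counts per kilobase of the 5 receptor subunit genes that each gene took (stacked, vertical axis from 0 to 100) in each of the 6 samples. The γ segment has a mean of 40.9% in GM and 51.2% in DM, the β segment one of 33.8% in GM and 14.1% in DM, and the ε segment is thin in all samples.

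AGRN (ENSBTAG00000013191, chromosome 16, 52674207 to 52712338, minus strand) encodes agrin, of which the spliced form made by nerve is the potent activator of MuSK, and the gene table does not separate splice forms. Its level was 22.7, 23.5 and 22.5 CPM in GM and 34.8, 30.0 and 30.8 CPM in DM. The groups did not overlap. The log2 fold change of 0.48 (SE 0.080, edgeR adjusted p = 0.000384), or 1.39-fold, was under the minimum for a call.

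LRP4 (ENSBTAG00000008429, chromosome 15, 77663792 to 77701236, minus strand), the agrin receptor, was at 22.7, 19.3 and 21.0 CPM in GM and 27.8, 30.2 and 31.4 CPM in DM. All DM samples were higher, by 1.42-fold on average. Its log2 fold change of 0.50 (SE 0.087, edgeR adjusted p = 0.000470) was also under the minimum.

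MUSK (ENSBTAG00000002744, chromosome 8, 101881883 to 101976250, plus strand) encodes the kinase that LRP4 activates. It had 66, 33 and 84 counts in GM and 507, 639 and 800 in DM. These were 1.59, 0.793 and 2.22 CPM in GM and 15.0, 17.5 and 21.6 CPM in DM. MUSK rose 11.8-fold and had the largest fold change of the 10 genes, with a log2 fold change of 3.56 (SE 0.28, 95% confidence interval 2.93 to 4.19, edgeR adjusted p = 1.45e-06). The GM samples ranged widely, and the log2 fold change was 3.25 without GM replicate 2 and 3.92 without GM replicate 3.

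DOK7 (ENSBTAG00000009742, chromosome 6, 107234731 to 107252591, minus strand) had 22, 19 and 29 counts in GM and 162, 216 and 211 in DM. In CPM its level was 0.530, 0.457 and 0.765 in GM and 4.80, 5.90 and 5.70 in DM. This adaptor of MuSK rose 9.36-fold, with a log2 fold change of 3.23 (SE 0.24, edgeR adjusted p = 9.45e-07). DOK7 lies within the span of a listed gene without a symbol on the same strand, ENSBTAG00000005711, which changed in the opposite direction (log2 fold change -2.74). That gene has a listed length of 558 bases, and whether its exons overlap those of DOK7 is not given. The count of DOK7 may depend on how reads in the shared span were assigned.

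RAPSN (ENSBTAG00000021745, chromosome 15, 78463174 to 78475425, minus strand) was the only one of the 10 genes with a lower level in DM in every sample. It was at 89.2, 95 and 98.4 CPM in GM and at 56.5, 54.6 and 54.7 CPM in DM. The GM level was 1.70 times the DM level. The log2 fold change was -0.77 (SE 0.064, 95% confidence interval -0.91 to -0.63, edgeR adjusted p = 2.12e-06), under the minimum for a call. RAPSN had the smallest standard error of the 10 genes.

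Levels of different genes were compared as CPM per kilobase of listed length. In GM the order began with RAPSN at 65.1 ± 3.22 (SD, n = 3), followed by CHRNG at 14.3 ± 2.53 and CHRNB1 at 11.7 ± 0.918, whose samples overlapped. CHRND followed at 5.76 ± 1.68, then AGRN at 3.61 ± 0.0818 and LRP4 at 3.55 ± 0.288, which overlapped, and CHRNA1 at 2.45 ± 0.625. CHRNE, MUSK and DOK7 were all below 1, and the samples of MUSK and DOK7 overlapped. RAPSN transcripts thus stood well above those of every receptor subunit in proliferating cells.

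In DM the order began with CHRNG at 43.9 ± 5.59 CPM per kilobase, ahead of RAPSN at 38.2 ± 0.755 and CHRND at 19.3 ± 2.73. CHRNB1 at 12.1 ± 2.12 and CHRNA1 at 9.56 ± 1.17 overlapped. MUSK, AGRN and LRP4 lay together at 5.07 ± 0.940, 5.03 ± 0.404 and 5.03 ± 0.310. DOK7 was at 3.95 ± 0.426 and CHRNE was last at 0.785 ± 0.337. MUSK, near the bottom of the order in GM, thus stood at the level of its partner LRP4 in DM.

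Ratios between genes within a sample also need no scaling between samples. They were chosen after the values had been seen and carry no test. RAPSN was 26.2, 35 and 21.8 times CHRNA1 per kilobase in GM and 4.52, 4.12 and 3.47 times in DM. Against the sum of the 5 subunits it was 1.67, 2.29 and 1.73 in GM and 0.498, 0.476 and 0.381 in DM. Rapsyn transcripts were in excess of all subunit transcripts together in every GM sample and fewer in every DM sample.

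MUSK over LRP4 was 0.117, 0.0684 and 0.175 in GM and 0.900, 0.963 and 1.15 in DM, so the kinase and its coreceptor had similar levels per length in DM. DOK7 over MUSK was 0.857, 1.48 and 0.888 in GM and 0.822, 0.869 and 0.678 in DM, with overlapping groups. AGRN over LRP4 also overlapped, with means of 1.02 in GM and 1.01 in DM. CHRND over CHRNA1 was 2.67, 2.06 and 2.28 in GM and 2.0, 2.0 and 2.06 in DM. CHRNB1 over CHRNA1 was 5.26, 5.67 and 3.85 in GM and 1.25, 1.20 and 1.34 in DM.

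**Figure D4:**
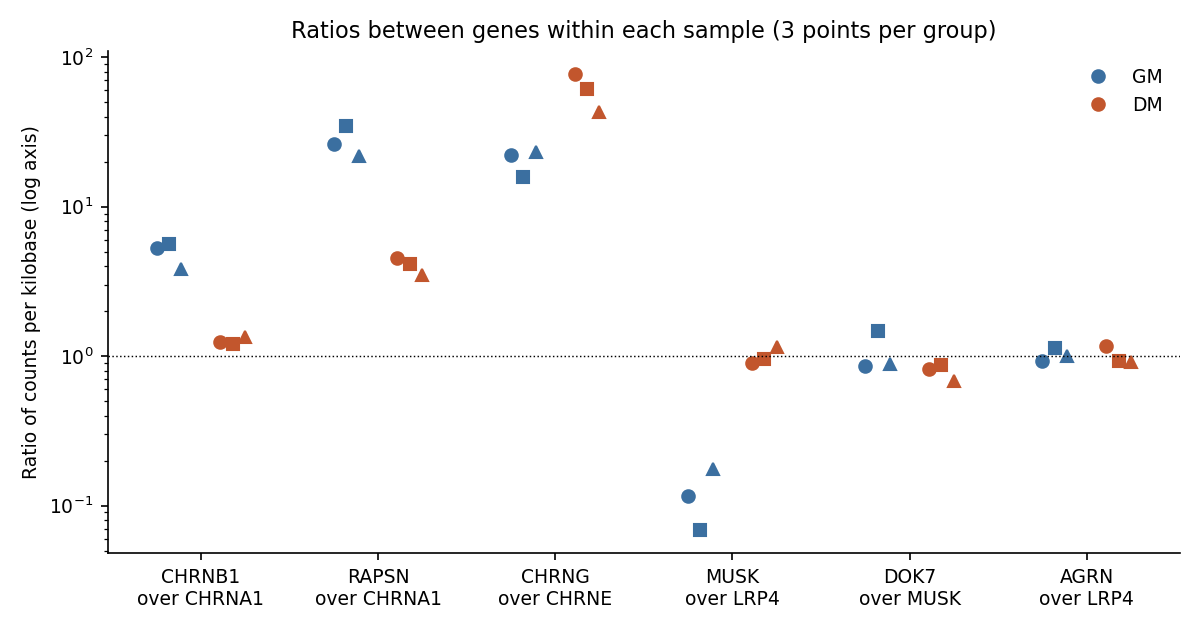
Ratio of counts per kilobase between pairs of genes (vertical axis, log scale) in the 3 GM and 3 DM samples. RAPSN over CHRNA1 has a mean of 27.7 in GM and 4.04 in DM and MUSK over LRP4 one of 0.120 in GM and 1.0 in DM, while the points of DOK7 over MUSK and of AGRN over LRP4 overlap between groups.

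Among the replicates of a group, the called genes had nearly the same order of samples. GM replicate 2 was the lowest GM sample for all 5 called genes, whereas 35.5% of all tested genes had their lowest GM value there, and GM replicate 3 was the highest GM sample for all 5, against 30.6%. In DM, replicate 3 was the highest for 4 of the 5, against 37.7% of all genes, and DOK7 was highest in replicate 2. MYOG, which encodes myogenin, a regulator of muscle differentiation genes, had the same order in GM, at 52.3, 39.9 and 66.6 CPM, and was at 161, 185 and 155 CPM in DM. MYH3 was also lowest in GM replicate 2, at 418, 207 and 414 CPM in GM, and was highest in DM replicate 3, at 1647, 1837 and 2708 CPM in DM. Without DM replicate 3 the log2 fold changes were 1.87 for CHRNA1, 1.64 for CHRND, 1.51 for CHRNG, 3.42 for MUSK and 3.21 for DOK7, each still called.

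Likeness to CHRNA1 was described by Pearson's r of log2 CPM over the 6 samples, among 8980 other genes whose mean reached 10 CPM. The 6 samples form 2 groups, so this measure mostly follows the difference between GM and DM and is given without a p-value. The most alike were SYPL2, MYPN and LMOD3, each with r = 0.998. All 3 are genes of skeletal muscle, and MYPN and LMOD3 encode sarcomere proteins. All 3 were below 10 CPM in every GM sample and reached the minimum mean only through DM. MUSK, DOK7 and CHRNE did not reach it and were not ranked. CHRNG was in place 11 (r = 0.996) and CHRND in place 58 (r = 0.992), while CHRNB1 had r = 0.292 and RAPSN r = -0.961.

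The mRNA table lists 11 transcripts of the 10 genes, and 9 of them have the same counts as their gene, so it adds little to the gene table. Of these, 6 were called, all higher in DM, against 25.6% of all mRNAs tested. MUSK alone had more than 1 transcript. The longer, ENSBTAT00000065708 of 3462 bases, had 55, 27 and 68 counts in GM and 458, 537 and 702 in DM, with a log2 fold change of 3.63. The other, ENSBTAT00000003558 of 3210 bases, had 66, 33 and 82 counts in GM and 505, 635 and 794 in DM, with one of 3.55. Together their counts exceeded those of the gene, so reads were shared between them, and they cannot be read as separate isoform levels.

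Other genes of the junction were taken in 6 lists of 154 genes, of which 126 were tested. Among these, 37 were called, or 29.4%, near the 25.3% of all genes tested, with 27 higher and 10 lower in DM. The median log2 fold change was 0.13, and 0.03 over all genes. The nicotinic subunits found in neurons and other tissues were hardly detected. Only 3 of 11 were tested, CHRNA3 fell (log2 fold change -1.86, SE 0.33), and the call of CHRNA10 rested on under 1 CPM.

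In the synaptic cleft and matrix list, 8 of 23 tested genes were called higher and 3 lower, or 47.8% in all, where 25.3% of all genes were called. ACHE, the enzyme that breaks down acetylcholine, rose from 0.858 ± 0.582 to 8.69 ± 1.54 CPM (SD, n = 3), and the basement membrane genes NID1 and COL4A6 had log2 fold changes of 2.81 and 2.42. Laminin α5 (LAMA5) and integrin α7 (ITGA7) fell, with log2 fold changes of -1.95 and -1.96. The median of the list was 0.08, close to that of all genes.

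In the postsynaptic scaffold list, 9 of 27 were called, or 33.3% against 25.3% of all genes. All 9 were higher, against 15.0% of all genes called higher, but by the adjusted p alone 16 genes of the list were higher and 8 lower. They included SCN4A, the muscle sodium channel, with a log2 fold change of 3.89, and the dystrobrevin gene DTNA with 2.70. In the MuSK signalling list 3 of 33 were called (9.09%, against 25.3% of all genes), all higher, namely SFRP1 (2.07), a secreted Wnt inhibitor, the Src family kinase gene FYN (1.32) and CAV3 (1.11), the muscle caveolin. Most genes of this list were not called, and the list's median was -0.06. By the adjusted p alone 22 of the 33 passed, 11 higher and 11 lower, where 63.0% of all genes passed.

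In the list of regulators of subunit gene transcription, 5 of 28 were called higher and 6 lower, or 39.3% in all against 25.3% of all genes tested. The list's median was -0.20. ERBB3, a neuregulin receptor, rose from 1.94 ± 0.750 to 37.8 ± 5.96 CPM (SD, n = 3), and the muscle transcription factor genes MEF2C and MYF6 had log2 fold changes of 4.02 and 3.97. ID1, an inhibitor of myogenic factors, fell (log2 fold change -3.55), as did MYF5 (-2.70) and EGR3 (-1.89). Of the other genes of congenital myasthenic syndromes, 1 of 12 tested was called (8.33%, against 25.3%). That gene, SNAP25, named after its values were seen, was at 4.13 CPM in DM replicate 3 and below 0.1 CPM in the other DM samples.

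**Figure D5:**
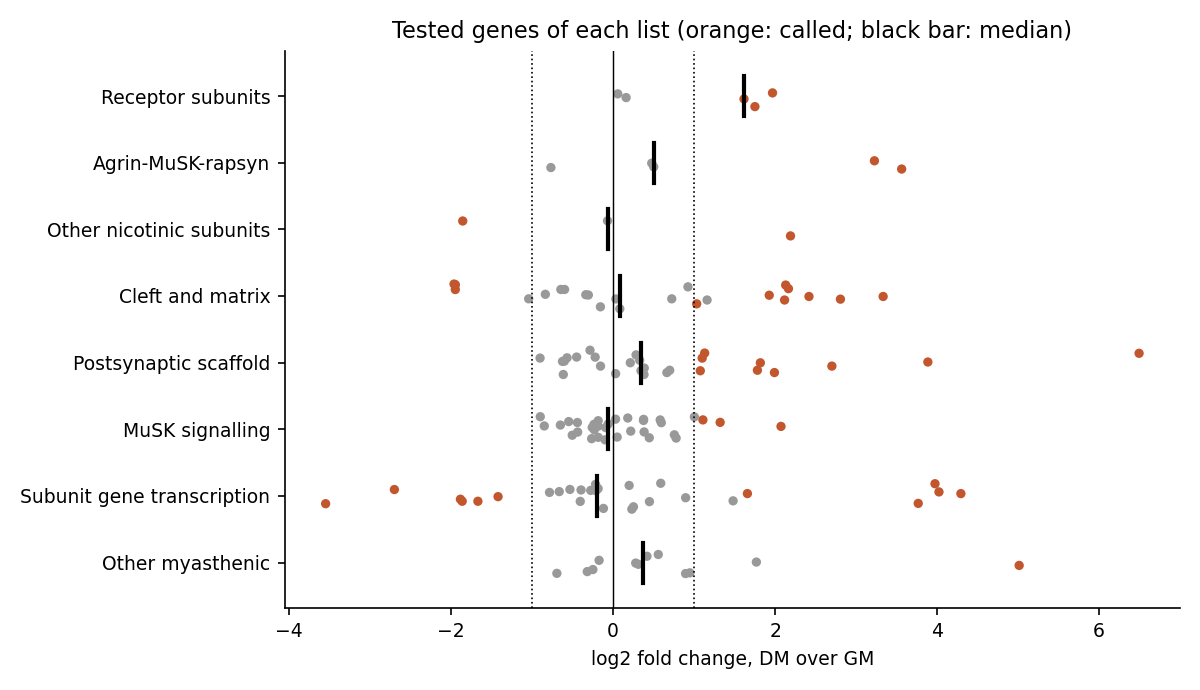
log2 fold change of DM over GM (horizontal axis) of each tested gene in the receptor subunit and clustering groups and in the 6 lists of other junction genes, with the median as a black bar and called genes in orange. The receptor subunits have a median of 1.62 and the clustering genes one of 0.50, while the medians of the other lists lie between -0.20 and 0.36.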

How the data were processed

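RNA-seq of 3 GM and 3 DM samples was analysed. The authors deposited gene and mRNA tables with raw counts, without normalization, after alignment with HISAT2. The counter is not given in the sources used here. The RPKM columns were computed by the authors from these counts, the listed Length and the library's summed counts, and served here only for a filter used as an alternative. The methods name the buffalo genome, while the tables carry cattle Ensembl identifiers and no build, so coordinates are given as listed. The submitters' processing notes list Bowtie 0.12.2 and mouse builds, which do not match the organism. The lists of the authors' own fold changes and p-values and the ncRNA tables were not used.

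Genes or mRNAs with at least 10 counts in total were tested with edgeR 4.0.16 in R 4.3.3 (glmQLFit and glmQLFTest, TMM), with Benjamini-Hochberg adjustment. TMM factors were 1.03 to 1.04 in GM and 0.948 to 0.983 in DM. CPM used the TMM library size. Standard errors were taken from the F statistic. Depth covers counting error only. The study used DESeq2, which was run as an alternative (version 1.42.0). The scripts were tested on simulated data. Shares were computed with Python 3.11.15, and scipy 1.17.1 gave the exact permutation tests.

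The members, the lists and the tests were chosen with earlier results of these data known. Named genes were every member, up to 3 higher and 3 lower called genes of at least 1 CPM per list, stated markers, genes that overlap a member or flank the CHRND and CHRNG pair, and the 3 genes most like CHRNA1. A gene this rule names is not reported here. Marker lists covered myogenic cells, fibroblasts, adipocytes, endothelial cells, immune cells, Schwann cells and motor neurons.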

Additional observations from a re-analysis of the deposited data

How the results depend on the processing

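The 5 called genes remained called in every alternative that tested them (DESeq2, other scalings and filters, each replicate left out, the replicate block and a test against a fold change of 2). Keeping only genes whose RPKM reached 1 in over 50% of the samples removed CHRNE, MUSK and DOK7. Of the 7 members still tested, 3 were then called. MUSK and DOK7 were above 1 CPM per kilobase in every DM sample and in no GM sample. That is exactly 50% of the samples, so both missed this filter by the smallest margin. With no minimum fold change, 8 of the 10 members were called, adding AGRN (0.48), LRP4 (0.50) and RAPSN (-0.77). So were 96 of the 126 other junction genes, against 63.0% of all genes tested. Over all genes, the calls numbered 9813 of 15576 with no minimum fold change. They numbered 2197 of 11587 under the RPKM rule and 2293 of 15576 against a fold change of 2.

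Signs changed in CHRNB1 and CHRNE, neither of them called. With replicates left out, the log2 fold change of CHRNB1 ranged from -0.0882 to 0.14 (-0.01 without GM replicate 2), that of its mRNA from -0.11 to 0.12, that of CHRNE from -0.23 to 0.38 and that of its mRNA from -0.25 to 0.36. By library size alone, CHRNB1 was at -0.0396, its mRNA at -0.11 and the CHRNE mRNA at -0.00906. What caused the sign changes with replicates left out was not tested. Scaling by library size alone lowered the log2 fold change of every member, for example CHRNA1 from 1.97 to 1.87 and RAPSN from -0.77 to -0.87. It set the median over all genes to -0.07, from 0.03. Ranges with replicates left out were 1.81 to 2.18 for CHRNA1, 1.53 to 1.93 for CHRND, 1.48 to 1.72 for CHRNG and 3.08 to 3.46 for DOK7.

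Samples with the same number did not deviate together over all genes (correlations of -0.0218 to -0.00756). With 3 samples per group this cannot exclude that the numbers pair them. A replicate block gave 3837 calls against 3936, and log2 fold changes of 3.60 for MUSK and 1.98 for CHRNA1, with 5 members called as before. Among the called genes, the block lowered the standard errors of CHRNA1 (0.164 to 0.115), CHRND, CHRNG and MUSK (0.284 to 0.216). It raised that of DOK7 (0.243 to 0.261). At 19 to 84 counts per GM sample, the levels of CHRNE, MUSK and DOK7 in GM have the largest relative counting error of the 10 genes. The spread between GM replicates did not simply follow the counts. Levels in GM were 1.14 ± 0.0347 CPM for CHRNE, 1.53 ± 0.713 CPM for MUSK and 10.6 ± 3.08 CPM for CHRND (SD, n = 3).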

Other observations

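Adipocyte markers summed to 7.04 to 8.39 CPM in GM and 7.54 to 8.89 CPM in DM, endothelial markers to 13.6 to 15.8 and 14.2 to 24.3 CPM, and immune markers to 6.20 to 8.37 and 7.30 to 13.8 CPM. Schwann cell markers summed to 115 to 120 CPM in GM and 132 to 164 CPM in DM, mostly from PMP22 and, in DM, ERBB3. Motor neuron markers summed to 341 to 380 CPM in GM and to 348, 339 and 624 CPM in DM replicates 1, 2 and 3, mostly from STMN2.

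The genes flanking the members showed no single pattern. Of the 15 that were tested and are not members, 3 were called (20%, against 25.3% of all genes), and the groups did not overlap for 9 (60%, against 68.8%). The called ones were LPAR1 beside MUSK, a lysophosphatidic acid receptor gene at 15.6 ± 0.504 CPM in GM and 104 ± 11.4 CPM in DM (SD, n = 3), ISG15 beside AGRN, at 0.316 ± 0.0777 and 1.15 ± 0.729 CPM, and CKAP5 beside LRP4, which was lower in DM, at 377 ± 12.9 and 153 ± 10.2 CPM. Both neighbours of RAPSN were lower in DM without being called, PSMC3 with a log2 fold change of -0.59 and CELF1 with one of -0.61. The neighbours of CHRNB1 differed in opposite directions, FGF11 at -0.76 and ZBTB4 at 0.52. SVEP1 beside MUSK (0.08), CHN1 beside CHRNA1 (-0.09) and LRPAP1 beside DOK7 (0.01) overlapped between the groups. WIPF1, the other neighbour of CHRNA1 (0.86), and MINK1 beside CHRNE (0.52) were higher in DM without overlap, and neither was called. These genes were named after their values were seen.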
